A study of Mus musculus with 69 samples.

Results

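The values set ribosome-bound mRNA of parvalbumin (PV) neurons against that of Camk2a neurons in the primary somatosensory cortex (S1) of wild-type (WT) mice. The members were the WT S1 libraries of a single deposited table, with the cell class read from the animal code in the library name, which gave 10 PV libraries and 8 Camk2a libraries, 18 of 69 in all. The study profiled both classes in S1 and in primary visual cortex (V1) of WT and Fmr1 KO mice, and KO libraries entered no comparison between classes here. The PV libraries came from PV-Cre-Rpl22HA/HA mice and the Camk2a libraries from Camk2a-Cre-Rpl22HA/HA mice, each library from a separate animal of 70 to 100 days, with no Fmr1 deletion. Every animal of both classes therefore carried the tagged ribosomal protein allele, and cell class and mouse line cannot be told apart.

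In the RiboTag method, Cre recombinase switches on an HA-tagged copy of the ribosomal protein RPL22 in the cells that express the driver. Immunoprecipitation of the tag from homogenised tissue recovers the mRNA that those cells hold on ribosomes, with some RNA of other cells. PV neurons are inhibitory, mostly basket cells, and are known for brief action potentials, sustained fast firing, tightly timed GABA release, high energy use and a perineuronal net around the soma. Camk2a neurons of the cortex are excitatory glutamatergic cells, mainly pyramidal. In such bulk samples, fewer cells of a type and less RNA per cell cannot be told apart.

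Library totals were 30.74 to 48.29 M estimated counts in PV libraries and 27.64 to 47.92 M in Camk2a libraries. The labels placed C24 in Batch 2 and the other libraries in Batch 1, so no test within Batch 2 was possible. Sex read from Xist and Y-linked mRNA differed from the label for C16 and C23 and matched it in the other 16 libraries.

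4 libraries stood apart from the others of their class, and they were picked with values of these data known. Gad1, which encodes the main GABA-synthesising enzyme, was at 489 and 536 CPM (counts scaled to a common library total) in the Camk2a libraries C18 and C19, and at 15.0 to 28.1 CPM in the other 6. As a share of the PV mean, Gad1, Gad2, Slc32a1 and Erbb4 were at 11.2% to 14.4% in C18 and C19, against 0.403% to 2.56% in the other 6. C18 and C19 thus stood above the other 6 in all 4 genes, and a fold of a gene higher in PV that moves by over 1.5 times without them is given both ways.

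The other pair was the animals P22 and C24. An area score was computed for each WT library as the mean log2 CPM of 25 genes higher in S1 minus that of 25 genes higher in V1. The genes were picked in the other animals of the same class, WT and KO. P22 and C24 were among these when another animal of their class was scored. The S1-labelled PV library of P22 scored 0.88, against 2.17 to 3.03 in the other 9, and its V1-labelled library scored 3.22, against 0.01 to 1.10. C24 scored -1.74 in its S1-labelled library, against 0.53 to 1.44 in the other 7, and 0.71 in its V1-labelled library, against -1.51 to -0.84. Both pairs of libraries went against their area labels, and the S1 minus V1 results are given with all libraries and without P22, C24, C18 and C19.

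**Figure D1:**
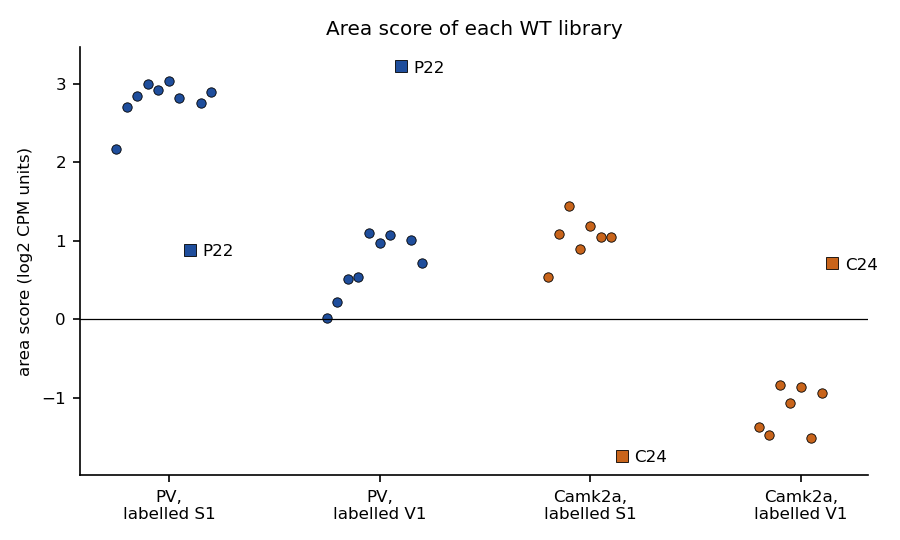
Area score (log2 CPM units, vertical axis) of each WT library by class and labelled area; each point is 1 library and squares mark P22 and C24. P22 scored 0.88 under the S1 label and 3.22 under the V1 label, and C24 -1.74 and 0.71, each on the side of the other area.

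The class labels were borne out by the defining mRNAs. Pvalb, which encodes the calcium buffer that names the PV class (chr15:78191114-78206400, mm10), had a lowest, median and highest value of 187, 607 and 745 CPM in PV libraries and of 3.04, 14.2 and 112 CPM in Camk2a libraries. Its log2 fold change, PV over Camk2a, was 4.15 ± 0.70 (SE, adjusted p = 5.07e-05), and 5.51 without C18 and C19. Gad1 (chr2:70553072-70602014) had a lowest, median and highest value of 3394, 3726 and 4324 CPM in PV libraries, against 15.0, 24.0 and 536 CPM in Camk2a libraries, with log2 fold changes of 5.09 with all libraries and 7.32 without C18 and C19. Slc17a7 (chr7:45163949-45176142), the vesicular glutamate transporter of cortical pyramidal cells, was at 120, 143 and 187 CPM in PV libraries and at 2142, 2408 and 2701 CPM in Camk2a libraries (log2 fold change -4.07 ± 0.09, adjusted p = 1.34e-19). Camk2a mRNA itself (chr18:60925618-60988152) was at 645 to 844 CPM in PV libraries and at 5316 to 6645 CPM in Camk2a libraries. None of these 4 genes overlapped between the classes. The share of all genes tested without overlap was not counted. A lack of overlap, here and below, therefore describes a gene and does not set it apart from other genes.

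**Figure D2:**
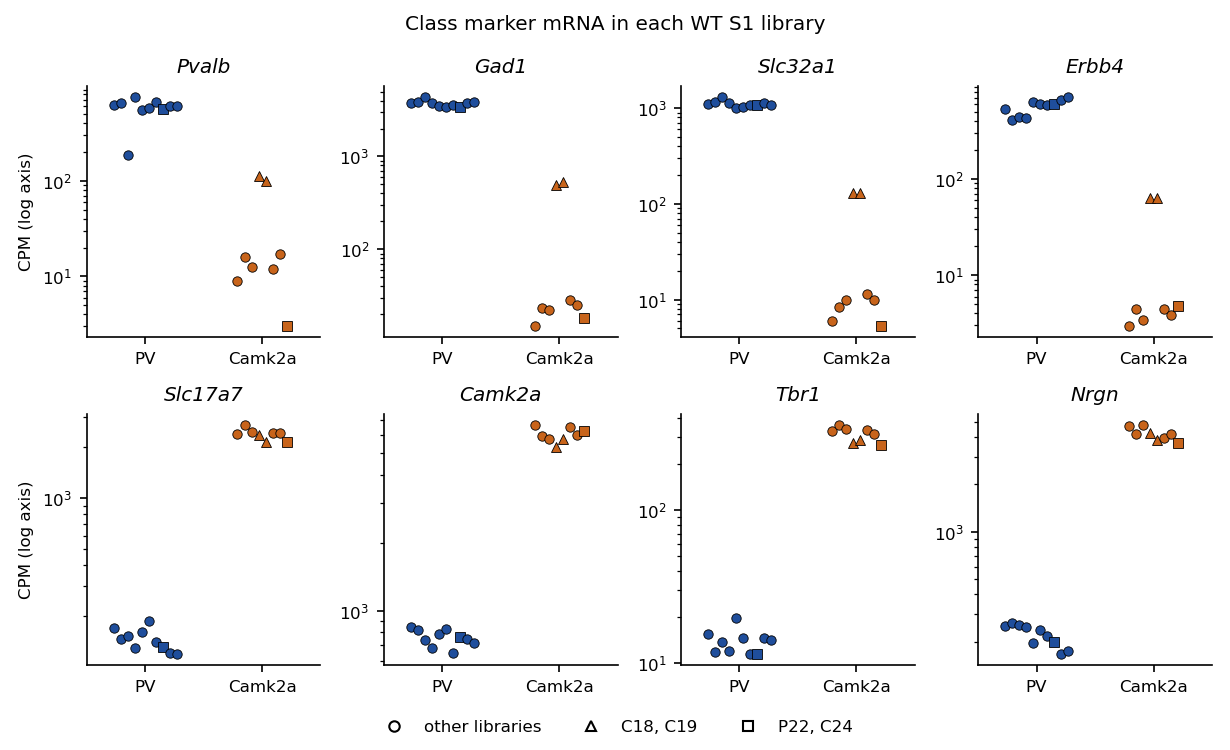
CPM on log axes of 4 inhibitory (top) and 4 excitatory (bottom) marker genes, 1 point per library, with PV left of Camk2a. Triangles mark C18 and C19, in which Gad1 reached 489 and 536 CPM, and squares mark P22 and C24.

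Promoter letters from RefSeq (GRCm38.p6, 250 bases before to 50 after the start) are shown for the 2 class-defining genes Pvalb and Slc17a7 and for 2 genes higher in PV, Syt2 and Hcn2, that hold AAGGTCA, the core motif of estrogen-related receptors, on either strand. Capitals mark that motif, which reads TGACCTT where it lies on the other strand. Of 133 named genes with a promoter in the table, 5 held it (Grin2c, Hcn2, Slc6a11, Syt2 and Trem2), and 4.66% of all 27025 promoters did. Of these 5 genes, Grin2c, Hcn2 and Syt2 were called higher in PV, and Slc6a11 and Trem2 were called lower. The promoters lie at chr15:78206351-78206650 on the minus strand (Pvalb) and, on the plus strand, at chr7:45163671-45163970 (Slc17a7), chr1:134646362-134646661 (Syt2) and chr10:79716384-79716683 (Hcn2).
Pvalb: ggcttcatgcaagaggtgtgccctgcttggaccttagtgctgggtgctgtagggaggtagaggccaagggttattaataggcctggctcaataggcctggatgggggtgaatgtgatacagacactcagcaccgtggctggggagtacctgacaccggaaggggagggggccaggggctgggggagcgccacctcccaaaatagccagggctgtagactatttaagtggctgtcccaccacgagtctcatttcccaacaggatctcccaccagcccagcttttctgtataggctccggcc
Slc17a7: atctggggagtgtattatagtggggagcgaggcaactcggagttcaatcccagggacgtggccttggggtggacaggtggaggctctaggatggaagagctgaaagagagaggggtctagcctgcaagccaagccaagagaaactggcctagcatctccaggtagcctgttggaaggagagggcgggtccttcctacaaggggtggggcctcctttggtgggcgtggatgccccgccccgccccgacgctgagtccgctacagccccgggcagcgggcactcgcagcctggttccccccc
Syt2: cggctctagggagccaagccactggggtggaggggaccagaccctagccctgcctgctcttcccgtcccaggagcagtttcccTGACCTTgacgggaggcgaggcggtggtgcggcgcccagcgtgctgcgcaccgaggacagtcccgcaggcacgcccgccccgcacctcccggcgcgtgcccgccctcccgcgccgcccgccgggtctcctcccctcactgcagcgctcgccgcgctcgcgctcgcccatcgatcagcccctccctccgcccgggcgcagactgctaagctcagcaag
Hcn2: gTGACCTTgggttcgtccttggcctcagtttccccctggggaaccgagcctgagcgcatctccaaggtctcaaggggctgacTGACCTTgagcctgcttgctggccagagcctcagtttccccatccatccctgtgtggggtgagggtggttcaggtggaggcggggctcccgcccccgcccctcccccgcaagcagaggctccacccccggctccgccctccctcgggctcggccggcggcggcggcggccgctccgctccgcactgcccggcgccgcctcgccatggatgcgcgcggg
A match is a description of letters and was not tested as a binding site.

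The first question was how far the 2 classes differ in the mRNA they hold on ribosomes. Calls rest on edgeR's quasi-likelihood test with sex as a covariate and a Benjamini-Hochberg threshold of 0.05. In S1 each library is a separate animal, so the p-values of this comparison measure the spread between animals. Of 16131 genes tested, 6303 were higher in PV (39.1%) and 6145 lower (38.1%), with a median log2 fold change of 0.02 over all genes. The scaling of the libraries centres most log ratios near 0, so this median and the balance of the directions are partly set by it. Small fold changes below are relative to that centre. At least 2-fold differences were called for 2423 genes higher in PV (15.0%) and 2482 lower (15.4%). Without C18 and C19 these counts were 2567 and 2561. With so large a share of all genes called, the count of called members of a gene group is read below against these percentages, beside the sizes. Where a group has shares near these in both directions, the counts describe its members and are no result about the group.

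Among protein-coding genes with a mean of at least 5 CPM, the largest differences toward PV were in Akr1c18, Tmem132c, Btbd11, Acan, Erbb4, Slc32a1, Mybpc1, Gad1, Lrrc38 and Pde5a, with log2 fold changes of 5.32 down to 5.01. Akr1c18, a 20-alpha-hydroxysteroid dehydrogenase that inactivates progesterone, was at 38.1, 49.0 and 57.9 CPM (lowest, median and highest) in PV libraries and at 0.104, 0.212 and 5.16 CPM in Camk2a libraries. It belongs to a cluster of closely similar genes, so its estimated counts may share reads with its neighbours. Lrrc38, an auxiliary subunit of BK potassium channels, was at 65.9 CPM in the median PV library and 0.436 CPM in the median Camk2a library. Pde5a, the phosphodiesterase that degrades cGMP, had medians of 181 CPM in PV and 1.49 CPM in Camk2a libraries. Mybpc1, a myosin-binding protein best known from skeletal muscle, had medians of 126 CPM in PV and 1.03 CPM in Camk2a libraries. Each of the 10 genes had a larger fold without C18 and C19, up to a log2 fold change of 8.04 for Akr1c18. Leaving out C19 alone moved Acan to 5.76, Akr1c18 to 6.02, Gad1 to 5.68 and Lrrc38 to 5.85.

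The largest differences toward Camk2a included Tmem215, Igfbp6, Rgs14, Ccn3, Wnt10a, Kcnv1, Tnnc1, Nptx2 and Dkk3, with log2 fold changes of -5.11 to -4.63. Kcnv1, a silent Kv subunit that modifies other channels, was at 4.26 to 8.57 CPM in PV libraries and 139 to 197 CPM in Camk2a libraries. Rgs14, a regulator of G proteins, was at 1.11 to 2.84 CPM in PV libraries and 48.5 to 74.6 CPM in Camk2a libraries. The groups did not overlap for either gene.

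The largest folds toward PV depended on C18 and C19. At a mean of at least 5 CPM, 10 called genes were over 32-fold higher in PV and 2 were over 32-fold lower. The extreme log2 fold changes were 5.32 and -5.11. Without C18 and C19 there were 79 such genes higher in PV and again 2 lower, and the extreme log2 fold changes were 8.54 and -5.12. C18 and C19 had been set apart by their inhibitory mRNA, so larger folds toward PV without them follow from that choice. Of the 15 excitatory markers, 13 were at a median of 3.87% to 8.36% of the Camk2a mean in PV libraries, and Camk2a and Lmo4 were at 12.5% and 13.6%. For 7 inhibitory genes the 6 Camk2a libraries other than C18 and C19 were at 0.403% to 2.98% of the PV mean, and C18 and C19 at 11.2% to 19.4%. No PV library was left out for the excitatory markers. The part of RNA from untagged cells in these levels was not tested.

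**Figure D3:**
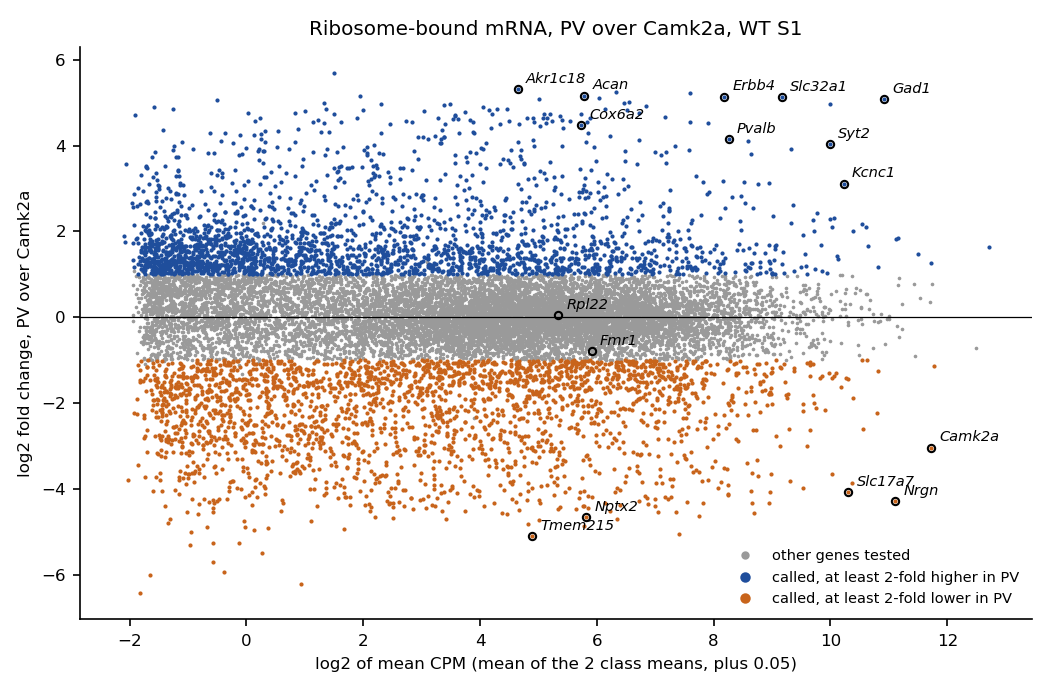
Log2 fold change, PV over Camk2a, against log2 mean CPM for all 16131 genes tested; blue and orange points are genes called at least 2-fold higher and lower in PV, and open circles are named genes. Inhibitory markers such as Gad1 and Erbb4 lie near 5, Slc17a7 at -4.07, and Rpl22 near 0.

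All 14 PV interneuron markers were called higher in PV (median log2 fold change 3.62, and 4.41 without C18 and C19), as were all 10 pan-inhibitory markers (4.70 and 6.45). DESeq2 called 4 of these 10 and gave no adjusted p for the other 6. All 15 excitatory markers were called lower, with a median of -4.29. The summed level of the pan-inhibitory markers was 7081 to 8520 CPM in PV libraries and 56.4 to 1048 CPM in Camk2a libraries, and that of the excitatory markers 1226 to 1530 CPM in PV and 15261 to 17700 CPM in Camk2a libraries.

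Of 19 tested markers of other interneurons, 8 were higher in PV and 7 lower, with a summed level of 311 to 417 CPM in PV and 1020 to 1304 CPM in Camk2a libraries. Lamp5 was at 17.0 to 46.9 CPM in PV and 455 to 590 CPM in Camk2a libraries, Cck at 38.7 to 72.0 and 339 to 544 CPM, and Penk and Nr2f2 were also called lower in PV (log2 fold changes -3.56 and -2.96). Lamp5 and Cck are also expressed by cortical excitatory cells. Higher in PV were Crhbp, which encodes a binding protein of corticotropin-releasing hormone (4.65, and 5.97 without C18 and C19), the neuropeptide gene Npy (3.75), Prox1 (1.41) and Reln (1.39). Sst, named here after its values were seen, was at 11.5 to 36.1 CPM in PV and 3.72 to 23.4 CPM in Camk2a libraries, which overlapped. Its log2 fold change was 1.00 (adjusted p = 0.0123), and 0.69 without C18, C19, P22 and C24 (adjusted p = 0.134).

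Markers of non-neuronal cells were present in both classes, the microglial, precursor, vascular and red blood cell lists at low summed levels and the astrocyte and oligodendrocyte lists at higher ones. Of 14 microglial markers 12 were called higher in PV (median log2 fold change 1.68), with a summed level of 40.8 to 53.9 CPM in PV and 19.3 to 24.8 CPM in Camk2a libraries. For the 8 oligodendrocyte precursor markers, all 8 higher, the sums were 18.9 to 29.9 CPM in PV and 6.34 to 11.1 CPM in Camk2a libraries. Oligodendrocyte markers (14 of 16 higher, median 1.36) summed to 521 to 865 CPM in PV and 492.7 to 739 CPM in Camk2a libraries. Astrocyte markers had 12 of 16 members higher (median 1.33), but Aldh1l1 and the glutamate transporter Slc1a2 were lower (-2.25 and -1.65), and the sum was 866 to 1013 CPM in PV and 1001 to 1224 CPM in Camk2a libraries. Vascular markers (11 of 15 tested higher, median 1.07) summed to 20.6 to 27.5 CPM in PV and 17.5 to 20.3 CPM in Camk2a libraries, and 3 tested red blood cell markers had 1 call. Of the higher members, C1qb was at 1.21 to 3.09 CPM in PV and 0.316 to 0.751 CPM in Camk2a libraries, and Ugt8a at 5.88 to 14.5 and 1.70 to 3.59 CPM. Other members were called lower in PV, Enpp2 of the oligodendrocyte list (-2.14, at 42.0 to 56.0 CPM in PV and 172 to 250.4 CPM in Camk2a libraries), Igfbp7 and Tagln of the vascular list (-2.89 and -2.29) and Trem2 of the microglial list (-0.79, with overlap, and not called without C16, at -0.52 and an adjusted p of 0.0530). Igfbp7 was at only 0.154 to 1.21 CPM in PV libraries. Tagln was at 0.0551 to 0.39 CPM in PV and 0.563 to 1.86 CPM in Camk2a libraries. With only genes of at least 5 CPM tested, 1 microglial, 7 oligodendrocyte and no precursor or vascular marker was called higher. Members below that mean were not tested there, so these counts do not show that their differences vanished. No member of these lists was at 0 in all libraries of a class. The part of these cells in the differences below was not tested.

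Genes of GABA handling rose together in PV. Of 7 tested, 6 were higher (median log2 fold change 4.52, and 5.64 without C18 and C19), and DESeq2 called 3 of them and gave no adjusted p for the other 3. The lower member, Slc6a11, encodes a transporter of astrocytes (-0.68). The vesicular GABA transporter gene Slc32a1 was at 1006, 1102 and 1297 CPM (lowest, median and highest) in PV libraries and at 5.32, 9.86 and 131 CPM in Camk2a libraries (5.13, and 6.94 without C18 and C19). The second GABA-synthesising enzyme gene Gad2 had 4.52 and 5.64. Of 10 genes of glutamate synthesis and transport, 6 were higher and 4 lower, and the vesicular transporter genes Slc17a7 and Slc17a6 (-4.07 and -4.31) were among the lower ones.

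Transcription factors of interneurons had 14 of 22 tested members higher in PV and 3 lower (median 2.35). The homeobox factors Dlx5 and Dlx6, which act in the development of forebrain interneurons, had log2 fold changes of 4.56 and 4.06, and of 6.25 and 5.06 without C18 and C19. Maf and Npas3 had 3.21 and 3.39. Dlx6 overlaps an antisense gene, and without strand information the reads of both cannot be told apart. Satb1 differed less (0.66), while Nr2f2, Nr2f1 and Mef2c were lower (-2.96, -1.50 and -0.69). Esrrg, an orphan nuclear receptor, was at 207 to 292 CPM in PV and 19.6 to 68.3 CPM in Camk2a libraries (2.49 ± 0.20). Ppargc1a, a coactivator of mitochondrial genes, was at 208 to 277 CPM in PV and 39.8 to 71.3 CPM in Camk2a libraries (2.20 ± 0.12). Neither overlapped between the classes.

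Potassium channels split by subunit. Of 13 Kv1 and Kv3 channel genes and their partners, 10 were higher in PV and 2 lower (median 1.12). Kcnc1, which encodes the fast-repolarising Kv3.1 channel, was at 1923, 2147 and 2317 CPM (lowest, median and highest) in PV libraries and at 145, 199 and 435 CPM in Camk2a libraries, which gave 3.11 ± 0.21 on the log2 scale (adjusted p = 4.98e-10), and 3.44 without C18 and C19. The classes did not overlap. Kcnc2, another Kv3 gene, had 3.11, and the axonal Kv1 genes Kcna1 and Kcna2 had 1.85 and 1.12. The Kv3 gene Kcnc4 went the other way, at 5.95 to 10.1 CPM in PV and 91.9 to 104 CPM in Camk2a libraries (-3.75), as did Kcna4, which carries A-type current (-3.52).

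Other potassium channels were more often lower. Of 23 further Kv genes 6 were higher and 15 lower (median -1.03), and of 20 remaining potassium channel genes 4 were higher and 13 lower (median -0.51). Kcns3, a modifier subunit of Kv2 channels, was at 64.0 to 79.3 CPM in PV and 0.567 to 10.3 CPM in Camk2a libraries (4.57, and 5.87 without C18 and C19). Kcnk3, a leak channel gene, had 2.26. Lower were Kcnh3 (-3.77), a gene of the EAG family, and Kcnj2 (-4.39), an inward rectifier.

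Sodium and HCN channel genes divided evenly, with 6 of 15 higher, 7 lower and a median of 0.02. These shares are near those over all genes tested. Scn1a, the Nav1.1 gene, was at 591 to 833 CPM in PV and 148 to 352 CPM in Camk2a libraries (1.31 ± 0.14, adjusted p = 6.42e-08). Scn2a, the Nav1.2 gene, was at 31.3 to 54.5 CPM in PV and 388 to 627 CPM in Camk2a libraries (-3.50 ± 0.11, adjusted p = 4.21e-16). Neither gene overlapped between the classes. Scn8a, the Nav1.6 gene, differed by 0.67, and Hcn2, a channel of the hyperpolarisation-activated current, by 1.68.

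Calcium channel genes were lower in PV for 14 of 19 and higher for 5 (median -1.27). The auxiliary subunits differed most. Cacna2d2 was at 268 to 319 CPM in PV and 6.30 to 45.4 CPM in Camk2a libraries (3.99 ± 0.36, and 4.61 without C18 and C19), and Cacna2d1 at 11.6 to 20.1 CPM in PV and 243 to 311 CPM in Camk2a libraries (-4.24 ± 0.10). Of the pore subunits, the P/Q-type gene Cacna1a was slightly higher (0.46), and the T-type gene Cacna1g and the R-type gene Cacna1e were lower (-2.93 and -2.45). The AMPA receptor partner Cacng2 had 1.56 and the beta subunit Cacnb3 -2.54.

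Calcium-binding proteins and CaM kinases were lower in PV for 26 of 30, with a median of -1.26, and the 2 higher members were Pvalb and the kinase inhibitor gene Camk2n2 (0.51). Nrgn, which encodes the postsynaptic calmodulin-binding protein neurogranin, was at 168 to 261 CPM in PV and 3679 to 4769 CPM in Camk2a libraries (-4.29). Hpca, the neuronal calcium sensor hippocalcin, had -3.01, the calcineurin catalytic gene Ppp3ca -2.24 and the calcium buffer gene Calb1 -1.91.

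Genes of vesicle release were higher for 12 of 47 and lower for 31 (median -0.52). Syt2, the fast calcium sensor of PV terminals, was at 1419, 1958 and 2115 CPM in PV libraries and at 29.6, 81.5 and 289 CPM in Camk2a libraries, which gave 4.03 ± 0.41 on the log2 scale (adjusted p = 1.71e-07), and 4.70 without C18 and C19. Stx1a, a syntaxin of the fusion complex, was at 28.8, 33.0 and 42.5 CPM in PV libraries and at 519, 582 and 618 CPM in Camk2a libraries (-4.14 ± 0.07, adjusted p = 4.96e-21). Neither gene's values overlapped between the classes. The complexin genes, whose products clamp and promote fusion, also diverged, Cplx1 with 1.84, Cplx2 with -2.61 and Cplx3 with -3.70. Vamp1 had 2.42 and Vamp2 -0.64, and Vamp2 overlapped between the classes. Sv2b (-4.32) and Syt5 (-4.29) were among the lowest.

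Because many of these differences lie within gene families, the log2 ratio of 14 pairs of related genes was taken in each library. The ratios are of CPM, not corrected for gene length, so only the difference between classes is read. All 14 ratios were higher in PV. The pairs had been chosen with earlier results of these genes known, so the ratios are a description with no test, and 11 of them are given here. The widest gap was that of Kcnc1 to Kcnc4, at 8.07 ± 0.32 in PV and 1.21 ± 0.65 in Camk2a libraries (SD, n = 10 and 8), a difference of 6.87.

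The ratio of Scn1a to Scn2a was 4.06 ± 0.27 in PV and -0.78 ± 0.58 in Camk2a libraries, and that of Cplx1 to Cplx2 was 3.05 ± 0.29 in PV and -1.49 ± 0.46 in Camk2a libraries. Syt2 to Syt1 stood at 0.26 ± 0.26 in PV and -4.61 ± 1.12 in Camk2a libraries, and Vamp1 to Vamp2 at 0.36 ± 0.25 and -2.75 ± 0.56. The other pairs differed by 5.10 (Grin2d to Grin2b), 5.09 (Kcna1 to Kcna4), 4.87 (Cox6a2 to Cox6a1), 3.59 (Ank1 to Ank3), 2.95 (Cacna1a to Cacna1e) and 2.39 (Gria4 to Gria2). In no pair did the classes overlap. Without C18 and C19 every difference was larger, up to 7.20 for Kcnc1 to Kcnc4.

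**Figure D4:**
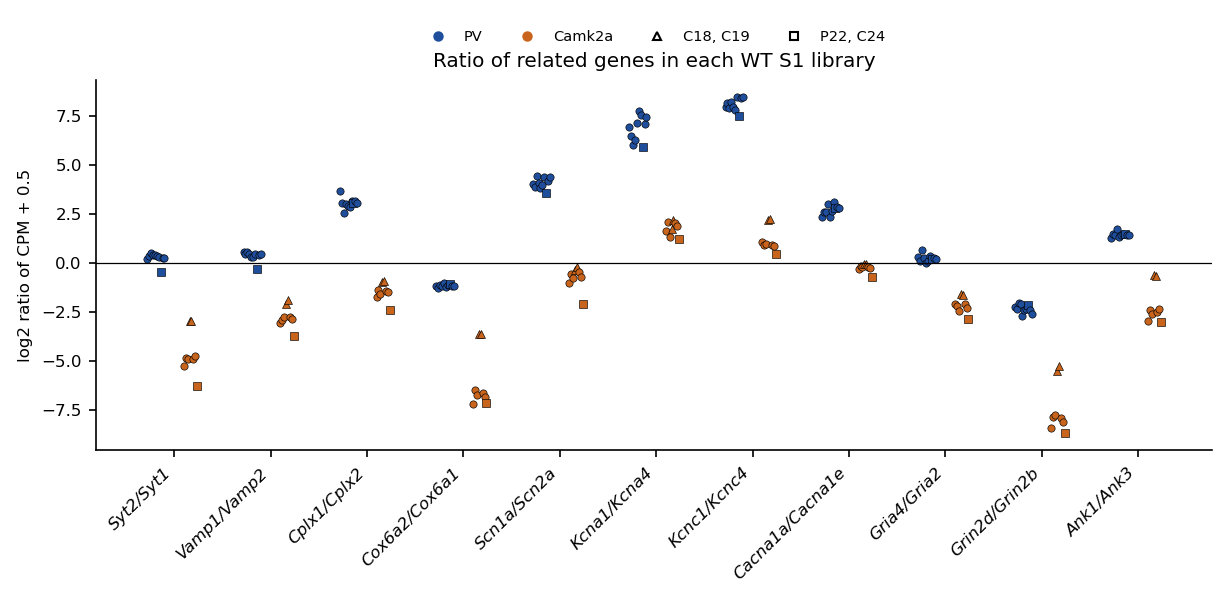
Log2 ratio of CPM + 0.5 of 11 pairs of related genes in each library, PV (blue) left of Camk2a (orange); triangles mark C18 and C19, squares P22 and C24. The classes are separate in every pair, by 2.39 (Gria4 to Gria2) to 6.87 (Kcnc1 to Kcnc4) between their means.

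Receptor genes had members called both ways, as did all genes tested (39.1% higher and 38.1% lower). Of 17 GABA receptor genes 6 were higher in PV and 10 lower (median -0.27), with the extrasynaptic subunit gene Gabrd (1.29) higher and Gabra2 and Gabra5 lower (-2.19 and -1.47). AMPA and kainate receptor genes had 5 of 17 higher and 11 lower (median -0.81). The AMPA subunit genes Gria1 and Gria4 had 1.26 and 1.14 while Gria2, whose edited product makes the receptor impermeable to calcium, was at 143 to 251 CPM in PV and 330 to 729 CPM in Camk2a libraries (-1.30 ± 0.14). The kainate subunit gene Grik1 had 2.78. Of 13 NMDA and metabotropic receptor genes 4 were higher and 8 lower (median -0.27). Grin2d was at 78.5 to 102 CPM in PV and 1.25 to 11.5 CPM in Camk2a libraries (4.56, and 5.66 without C18 and C19), Grin2c had 1.96, and Grin2b was only slightly lower (-0.38) with overlapping values. Grm2 and Grm8, which encode presynaptic metabotropic receptors, had -4.19 and -4.07.

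Postsynaptic scaffold genes were lower for 15 of 20 and higher for 3 (median -0.85). Dlg4, which encodes PSD-95, was at 429 to 568.2 CPM in PV and 1198 to 1408 CPM in Camk2a libraries (-1.41). Baiap2, a regulator of the actin cytoskeleton in dendritic spines, had -3.79, and Iqsec1, an exchange factor for ARF6, had 1.69. Synaptic adhesion genes had 12 of 36 tested higher and 19 lower (median -0.15), with Cntnap2 and Clstn2 higher (1.58 and 1.63) and Cbln4 and Lgi1 lower (-3.98 and -2.45).

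Perineuronal net genes rose almost as a group, with 15 of 17 tested higher in PV and 1 lower (median 1.83). Acan, the core proteoglycan aggrecan of the net, was at 51.7, 112 and 126 CPM (lowest, median and highest) in PV libraries and at 0.688, 0.997 and 12.7 CPM in Camk2a libraries. The lowest PV value was that of P22, and the classes did not overlap. PV exceeded Camk2a by 5.16 ± 0.62 on the log2 scale (adjusted p = 1.19e-06), and by 6.85 without C18 and C19. The other net genes named by the rule were the proteoglycan gene Bcan (2.80), the link protein gene Hapln4 (1.69), Crtac1 (2.03) and the hyaluronan synthase gene Has3 (1.59). The lower member was the proteoglycan gene Ncan, with 74.3 to 93.7 CPM in PV and 206 to 331 CPM in Camk2a libraries (-1.67).

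Among 19 genes of the axon and cytoskeleton, 9 were higher and 7 lower (median 0.05). The heavy neurofilament gene Nefh was at 611 to 1161 CPM in PV and 43.3 to 176 CPM in Camk2a libraries (3.12), Ina had 0.94 and the light neurofilament gene Nefl -0.60. Ank1, an ankyrin, was at 1017 to 1282 CPM in PV and 34.7 to 194 CPM in Camk2a libraries (3.92, and 4.55 without C18 and C19). In the list of ErbB, neurotrophin and IGF genes, 6 of 17 were higher and 8 lower (median 0.11). Erbb4, the neuregulin receptor of PV cells, was at 410, 596 and 703 CPM in PV libraries and at 2.98, 4.44 and 63.5 CPM in Camk2a libraries (5.14, and 7.04 without C18 and C19). Ntf3 had 2.56, at only 1.43 to 2.72 CPM in PV and 0.0835 to 0.634 CPM in Camk2a libraries. Bdnf was at 1.93 to 4.45 CPM in PV and 32.7 to 130 CPM in Camk2a libraries (-4.26), and Igfbp5 had -3.14.

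**Figure D5:**
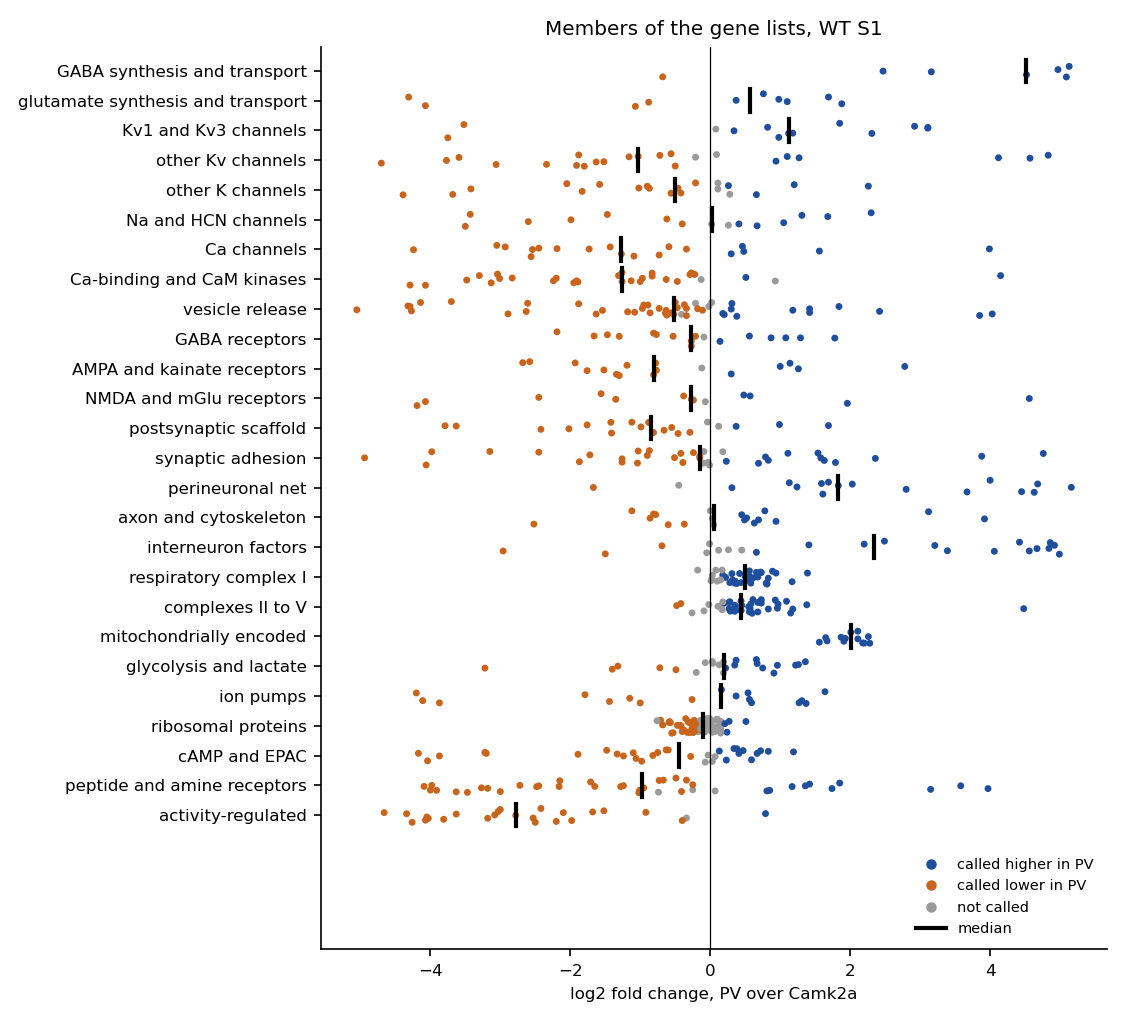
Log2 fold change, PV over Camk2a, of every tested member of 26 gene lists (1 point per gene, coloured by call) with the list median as a black bar. Perineuronal net, interneuron factor and mitochondrially encoded genes lie mostly right of 0 and activity-regulated and calcium-binding genes left of it, while channel, release and receptor lists spread to both sides.

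Genes of respiration were higher in PV by small amounts across the complexes. Of 37 complex I genes 29 were higher and none lower (median 0.50), and of 41 genes of complexes II to V 32 were higher and 2 lower (median 0.44). Ndufab1, Ndufs1, Cyc1 and Atp5b had log2 fold changes of 1.39, 1.17, 1.15 and 1.18. Atp5b, the catalytic subunit of ATP synthase, was at 2215 to 2922 CPM in PV and 1006 to 1203 CPM in Camk2a libraries. Cox6a2, an isoform of cytochrome oxidase best known from heart and skeletal muscle, was at 76.5 to 119 CPM in PV and 0.507 to 17.2 CPM in Camk2a libraries (4.48, and 6.32 without C18 and C19). Its common counterpart Cox6a1 overlapped and was not called (0.17, adjusted p = 0.0676), although 7 of 28 alternatives called it, with 0.19 to 0.22.

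All 13 mitochondrially encoded mRNAs were higher in PV, with a median of 2.01. They made up 0.960% to 3.45% of the counts in PV libraries and 0.323% to 0.670% in Camk2a libraries. mt-Co2 was at 817 to 3614 CPM in PV and 267 to 490 CPM in Camk2a libraries. These mRNAs are translated inside mitochondria and not on tagged cytosolic ribosomes, and the part of co-purified RNA in them was not tested.

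In glycolysis and lactate handling, 11 of 23 tested genes were higher and 5 lower (median 0.19). Ldha, the lactate dehydrogenase subunit favouring lactate formation, was at 27.9 to 48.8 CPM in PV and 282 to 403 CPM in Camk2a libraries (-3.22 ± 0.10, adjusted p = 1.12e-16), without overlap. Pfkl, the liver-type phosphofructokinase gene, had -1.32, the pyruvate kinase gene Pkm 0.91 and the monocarboxylate transporter gene Slc16a1 1.26. Ion pump genes had 9 of 17 higher and 8 lower (median 0.16). The sodium pump beta subunit gene Atp1b1 was at 4230 to 5213 CPM in PV and 1723 to 2198 CPM in Camk2a libraries, a log2 fold change of 1.27 without overlap, and the calcium extrusion genes Atp2b4 and Slc8a2 had -4.20 and -4.11.

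Ribosomal protein genes were nearly level, with 4 of 77 higher, 28 lower and a median of -0.10. The count of higher members ran from 1 to 8 over the alternatives. Rpl22, whose product carries the tag, was at 37.0 to 47.9 CPM in PV and 32.0 to 43.8 CPM in Camk2a libraries (0.04 ± 0.06, adjusted p = 0.535). Rpl28 had 0.51, and Rpl10 and Rpl41 had -0.71 and -0.58. Ribosomal protein genes have many processed pseudogenes, with which estimated counts may share reads.

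The study centres on Fmr1, the gene silenced in fragile X syndrome, and on the cAMP sensor EPAC2, encoded by Rapgef4. In these WT libraries Fmr1 was at 39.4, 45.2 and 52.1 CPM (lowest, median and highest) in PV and at 66.1, 73.7 and 85.5 CPM in Camk2a libraries (-0.80 ± 0.07, adjusted p = 1.06e-09). Rapgef4 was at 298, 321 and 343 CPM in PV and at 214, 232 and 261 CPM in Camk2a libraries (0.41 ± 0.04, adjusted p = 4.23e-09). Neither overlapped between the classes. Of 11 genes of FMRP, its paralogs, partners and well-known targets, 4 were higher and 7 lower (median -0.80), with Fxr1 at 0.32 and the partner genes Cyfip1 and Cyfip2 at -1.15 and -0.89. Of 32 cAMP and EPAC genes 11 were higher and 17 lower (median -0.44). The protein kinase A catalytic gene Prkaca had 0.59 and the phosphodiesterase gene Pde4a 1.19, while Pde4b was at 5.11 to 8.17 CPM in PV and 94.4 to 115 CPM in Camk2a libraries (-4.04) and the adenylyl cyclase gene Adcy2 had -3.20.

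Activity-regulated genes were lower in PV for 23 of 25 and higher for 1, Scg2 (0.79, with overlap), at a median of -2.78. Egr1, an immediate early transcription factor, was at 56.3 to 133 CPM in PV and 760 to 1672 CPM in Camk2a libraries (-3.81 ± 0.19). Nptx1 and Nptx2, pentraxins that cluster AMPA receptors, had -4.05 and -4.66. The highest Bdnf value in Camk2a libraries, 130 CPM, was that of C24.

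Within the PV class, Pvalb itself set a single library apart. It was at 187 CPM in P3 and at 547 to 745 CPM in the other 9 PV libraries, while P3 had the highest Gad1 (4324 CPM) and Slc32a1 (1297 CPM) and a Kcnc1 of 2121 CPM, inside the range of the others. Acan was at 51.7 CPM in P22 and at 90.3 to 126 CPM in the other 9.

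The second question was whether the difference between classes was the same in S1 as in V1. It was tested as the class effect in S1 minus that in V1, over 36 WT libraries of both areas. Each library was a unit in this fit, although 17 animals gave a library in both areas, so its p-values do not account for shared animals. With all libraries 263 of 17044 genes were called (1.54%), 141 more positive and 122 more negative in S1. Without P22, C24, C18 and C19 the number was 1416 of 17214 (8.23%), of which 251 were among the 263. Without C18 and C19 alone it was 83, of which 72 were among the 263. Of the 1416, 771 were more positive and 645 more negative in S1. P22 and C24 had been set apart by area scores that went against their labels in these same data. More calls, larger differences and smaller p-values without them, here and below, are therefore no separate support. With the animal as a replicate block, edgeR called 264 genes, of which 156 were among the 263, and limma-voom called 873, of which 261 were. The calls and adjusted p-values of single genes below are from the fit without the block.

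Sema3e, which encodes a secreted guidance cue, differed more toward PV in S1. There it was at 34.2, 87.8 and 96.3 CPM (lowest, median and highest) in PV and at 22.1, 27.4 and 50.4 CPM in Camk2a libraries. The lowest PV and the highest Camk2a value, those of P22 and C24, overlapped, and those of the other animals did not. Its class effect was 1.45 in S1 and -0.26 in V1, with a difference of 1.62 (adjusted p = 0.0061), and of 2.33 without the 4 animals P22, C24, C18 and C19 (adjusted p = 1.51e-10). Ndufab1, Hnrnpa0 and Ptges3 had positive differences of 0.85, 0.48 and 0.41, and of 0.88, 0.49 and 0.42 without the 4 animals.

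On the negative side, Tnfrsf1a, a receptor of tumour necrosis factor, had a class effect of -0.38 in S1 and 1.82 in V1, and of -0.56 and 1.97 without the 4 animals. Its difference was -2.07, and -2.51 without them. Fmod had 0.36 in S1 and 1.95 in V1, and 0.27 and 2.05 without the 4 animals, with differences of -1.56 and -1.76. The difference of Slc40a1, the iron exporter gene, was -1.41, and -1.70 without the 4 animals. That of Tgfa was -1.45 and -1.31, and that of Lima1 -1.29 and -1.17. All 5 were called in both settings. These 5 genes had medians of at most 3.35 CPM in either class in S1.

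The 4 genes that follow were chosen after their values were seen. Cartpt, a neuropeptide gene, had a difference of -2.67 with all libraries and of -4.31 without the 4 animals (adjusted p = 0.0266 and 4.97e-10). Pygm, the muscle-type glycogen phosphorylase gene, had -1.34 and -1.74 (adjusted p = 0.0076 and 3.00e-08). Kcnab3, a Kv beta subunit gene, had -0.98 and -1.46 and Tox2 0.78 and 1.48, both called only without the 4 animals (adjusted p = 3.03e-09 and 5.29e-10).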

How the data were processed

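Ribosome-bound mRNA was sequenced from immunoprecipitates of tagged ribosomes, and RNA of the input homogenate was not analysed here. The authors deposited estimated counts, 1 table of 17634 genes by 69 libraries, in which 71.1% of values are not whole. STAR, Salmon, limma and the build mm10 are named in the submitters' processing notes, and their roles and versions are not given in the sources used here. Values were rounded to whole counts, and gene names came from GENCODE M21 for 17614 genes. CPM was computed from the rounded counts without further scaling, and it is not corrected for gene length.

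Differences were fitted with edgeR 4.0.16 (TMM scaling, filtering by expression, robust quasi-likelihood, labelled sex as a covariate) in R 4.3.3, with DESeq2 1.42.0 and limma 3.58.1 as alternatives. The S1 minus V1 difference was the class by area term. Only the edgeR fit of the class difference in S1 was tested on simulated counts, with far fewer genes changed than were called here. V1 and S1 libraries of an animal share it, per the labels; over 17 animals their deviations from the group means correlated at -0.083 to 0.495 (median 0.208, 13 over 0.1). Replicate libraries differed beyond sampling noise, with a chi-square per degree of freedom of at least 4.35.

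Named genes were 7 class and study genes, the 10 largest differences each way among protein-coding genes of at least 5 CPM, up to 4 called members each way of each of 42 lists, all members of 14 pairs, and the 5 S1 minus V1 calls each way of smallest p, and some of these genes are not reported here. Libraries and lists were chosen with earlier results of these data known. Alternatives without P22 and C24 were added after seeing the data.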

Additional observations from a re-analysis of the deposited data

Results flagged for a closer look

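Samples were compared within each class for 180 named genes, and 50 of 360 groups had a highest or lowest library set apart from the rest by a wide gap (Dixon's criterion). Chance gives about 1 in 20 for a group chosen beforehand. The named genes include S1 minus V1 calls and genes chosen after their values were seen, and all are read in the same libraries. The number of flags therefore cannot be judged against that rate. Most of these values belong to P22 and C24, the animals whose area score went against the label, and no cause was tested.

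In the PV library of P22, Acan was at 51.7 CPM, Nptx2 at 8.83, Crhbp at 94.3, Syt2 at 1418.9, Gabra5 at 9.80, Gria1 at 864.6 and Has3 at 4.45 CPM. Also set apart there were Lgi1 at 55.8, Clstn2 at 215.5, Rorb at 15.2, Crym at 2.83, Pou3f2 at 4.20, Chrm1 at 91.2, Ugt8a at 5.88, Sema3e at 34.2, Cartpt at 15.7 and Pygm at 63.3 CPM. In P3, Pvalb was at 186.6, Lrrc38 at 43.1 and Pkm at 3811.4 CPM. Cplx2 was at 286.5 CPM in P1, Cacna2d2 at 267.9 CPM in P4, Cacna1g at 13.5 CPM in P21 and Igfbp7 at 0.154 CPM in P26.

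In the Camk2a library of C24, Tmem215 was at 17.6 CPM, Rgs14 at 74.6, Kcnv1 at 196.8, Dkk3 at 636.4, Kcna2 at 402.2, Scn2a at 627.1, Cacnb3 at 351.6, Camk2n2 at 74.9 and Cplx1 at 428.0 CPM. Gria1 was at 457.7, Grin2b at 889.9, Hapln4 at 154.0, Bdnf at 130.3, Igfbp5 at 117.7, Rprm at 28.0, Cox6a1 at 143.2, Slc6a11 at 19.9 and Atp2b4 at 481.8 CPM there. Sema3e was at 50.4, Tnfrsf1a at 0.145, Slc40a1 at 0.977, Cartpt at 0.543, Kcnab3 at 58.4 and Pygm at 3.04 CPM. In C18, Slc17a6 was at 34.5 CPM, and in C19 Has3 was at 2.56 CPM.

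The class difference, S1 minus V1, was called for named genes with all libraries, in the fit without the animal as a block. It was positive for Sema3e (1.62), Gabra5 (0.97), Reln (0.90), Ndufab1 (0.85), Clstn2 (0.59), Crtac1 (0.54), Slc16a1 (0.48), Hnrnpa0 (0.48), Ptges3 (0.41) and Cyc1 (0.35). It was negative for Cartpt (-2.67), Tnfrsf1a (-2.07), Fmod (-1.56), Tgfa (-1.45), Slc40a1 (-1.41), Pygm (-1.34), Lima1 (-1.29), Grm2 (-0.69), Stx1a (-0.67), Slc1a2 (-0.61), Lgi1 (-0.58) and Cacnb3 (-0.30). Without P22, C24, C18 and C19 each of these differences kept its sign and was called. P22 and C24 had been set apart by their area scores in these data, so these calls are no separate support.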

How the results depend on the processing

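The counts of genes called between classes stayed within 1.5 times under every alternative, except the 2-fold counts with only genes of at least 5 CPM tested. There, of 10620 genes, 1117 were at least 2-fold higher in PV and 1332 lower. These are smaller shares than the 2423 and 2482 of 16131 genes in the main fit. Leaving out each library in turn gave 6093 to 6407 genes higher and 5990 to 6226 lower, and at least 2-fold 2300 to 2502 higher and 2449 to 2526 lower. The S1 minus V1 count depended on the libraries and the tool. It was 263 with all libraries, 668 with DESeq2, 83 without C18 and C19, 1068 without P22, 1610 without P22 and C24, and 1416 without all 4. The paired fits, with the animal as a replicate block, gave 264 genes in edgeR and 873 in limma-voom. The cause of these shifts was not tested. Of 5015 values of named genes under 28 alternatives, 14 changed their call or sign, among them Rpl22, whose log2 fold change was -0.0016 without C18, C19, P22 and C24 (adjusted p = 0.983). In S1, Tnfrsf1a was called lower in PV in 3 alternatives and Fmod higher in 1. Genes below 1 CPM rest on few counts at these depths.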

Other observations

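Markers of cortical layers describe excitatory cells, and those of the upper layers, layer 4 and layer 6 were mostly lower in PV. All 9 upper-layer genes (median log2 fold change -1.91) and 10 of 12 layer 6 genes (-2.89) were lower, among them Pou3f2 (-3.35), Tbr1 (-4.55) and Rprm (-4.49). Of 6 layer 4 genes 4 were lower, including Rorb (-2.97) and Scnn1a (-3.77), and Rora was higher (0.71). The layer 5 list was not lower as a group, with a median of 0.04. Of its 10 genes 4 were lower, including Crym (-4.38) and Fezf2 (-2.61), beside 38.1% of all genes tested. Another 2 were higher, including Bcl6 (1.63), with a highest value of 3.16, and 4 were not called.

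Receptors of peptides and amines had 10 of 40 tested members higher and 27 lower (median -0.98). The adrenergic receptor gene Adra1a was at 17.9 to 40.3 CPM in PV and 1.24 to 4.37 CPM in Camk2a libraries (3.58). The delta opioid receptor gene Oprd1 was at 96.1 to 133.8 CPM in PV and 7.35 to 20.4 CPM in Camk2a libraries (3.15), and the tachykinin receptor gene Tacr3 had 1.74. Lower were the muscarinic receptor gene Chrm1 (-2.45), Crhr1 (-3.18) and Vipr1 (-2.72), which encode receptors of corticotropin-releasing hormone and vasoactive intestinal peptide. Of markers of other cells not given above, Cx3cr1 of microglia had 1.60, Acsbg1 of astrocytes 1.89 and Cdh5 of vessels 2.11, while other members of these lists were lower in PV. Cdh5 was at only 0.668 to 1.54 CPM in PV and 0.146 to 0.338 CPM in Camk2a libraries. mt-Nd1 ranged from 1265 to 5149 CPM within PV and from 388 to 934.5 CPM within Camk2a libraries.

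In S1, Xist was at 10.6 CPM and Y-linked genes at 0.81 CPM in C16, labelled male, and at 0.211 and 58.6 CPM in C23, labelled female. With sex taken from these genes, 6338 genes were called higher in PV and 6137 lower.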
